A study of Rattus norvegicus with 4 samples.

Results

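The regions described here were stretches of chromatin that lay close together on a chromosome and were called open in rat retinal ganglion cells (RGCs) at postnatal day 11 (P11) and not at embryonic day 21 (E21). They were chosen by presence and absence of calls, so the stage at which they were open is the rule and not a result. Open chromatin regions (OCRs) of 4 libraries were merged where they overlapped by at least 1 bp. A merged region was P11-only if both P11 libraries and neither E21 library had a call in it. P11-only regions with a gap of at most 12500 bp from the end of one to the start of the next were joined into a chain, and all P11-only regions in chains of at least 3 were kept. This gave 4308 clustered P11-only regions in 1271 chains, out of 28103 P11-only regions and 224715 regions in all on the 20 numbered chromosomes.

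RGCs are the projection neurons of the retina, and their axons form the optic nerve. They grow axons toward the brain before birth, and their ability to do so declines steeply around birth as they mature and receive synapses. ATAC-seq uses a transposase that inserts adapters where DNA is not wrapped tightly, so promoters, enhancers and insulators are read out as OCRs. Enhancers are stretches that regulate a gene from a distance, and several of them for one gene can lie as a group along the chromosome.

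The cells came from Sprague Dawley rats, with no treatment or transgene named, and the groups differed in age. There were 2 libraries from E21 embryos and 2 from P11 pups, with 300000 RGCs in each. RGCs were isolated by immunopanning, which removes macrophages with one antibody and then holds RGCs on a dish coated with another, against Thy1, and more papain was used to dissociate the P11 retinas. Each library came from a separate litter, so a library pools animals, and the p-values below measure the spread between litters. Age and dissociation cannot be told apart in this design. Neither can a region that is open in fewer cells and one that is less open in each cell. Markers of RGCs or other cells were not used here to check the cell type, because OCRs were not assigned to genes. Positions are on Rnor_6.0 (rn6), the build named in the submitters' processing notes.

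On the numbered chromosomes the E21 lists held 123707 and 151816 OCRs, and the P11 lists 152301 and 163714. The genome-wide background, which is proportional to depth, ran from 4.17 to 5.03 fragments and was lower in both P11 libraries. The summit pileup is the number of fragments stacked at the highest point of an OCR. The lowest pileup that was called was 14 fragments in both E21 libraries and 13 in both P11 libraries, or 2.78 to 3.12 times the genome-wide background. A region just under that level counts as absent, so absence at E21 means not called at this depth.

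In the full lists, P11-only regions sat closer together than E21-only regions. P11-only regions made up 12.51% of all regions and E21-only regions 7.61%. Of the P11-only regions 15.3% were clustered, and of the 17102 E21-only regions 5.3%, or 906 regions in 285 chains, met the same rule for E21. The next P11-only region lay within 12500 bp in 6524 cases (23.2% of gaps) and more than 100 kb away in 25.2%. For E21-only regions these shares were 12.57% and 43.2%. A larger set of regions has shorter gaps, so list length enters this comparison. With the same number of OCRs from every library, 1836 of 20041 P11-only regions were clustered (9.16%) and 1205 of 19776 E21-only regions (6.09%), a smaller difference than with the full lists. Without E21 replicate 1, the library with the fewest OCRs, 16.7% of P11-only regions and 16.3% of E21-only regions were clustered, so the shares were level. In that setting E21 replicate 2 alone defined presence at E21, which gave 30294 P11-only and 35614 E21-only regions. With any other library left out the P11 share was 25.5% to 30.2% and the E21 share 7.55% to 9.16%. Without P11 replicate 1 or 2, the other alone defined presence at P11. This gave 51078 or 44591 P11-only and 22066 or 25183 E21-only regions. When single libraries were compared, 1 of each stage, the share was higher at P11 in 4 of 4 pairs (29.3% to 41.8% against 12.49% to 23.6%). These pairs share libraries, and the P11 list was the longer one in each. The difference between the stages was not tested, since the same calls chose the members.

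Most chains were short. There were 927 chains of 3 regions (72.9%), 246 of 4, 62 of 5, 25 of 6, 6 of 7, 4 of 8 and 1 of 9. The E21 rule gave 243 chains of 3, 35 of 4, 6 of 5 and 1 of 7. Chains of at least 5 regions thus numbered 98 at P11 and 7 at E21. A P11 chain spanned 14384 bp at the median, with quartiles of 10166 and 19693.5 bp and a range from 1585 to 66116 bp. The members covered 9.98% of the span at the median, so they were called as separate narrow peaks. Other regions in the span are not part of this share. Whether the stretch as a whole was more open was not tested. The gap between neighbours within a chain was 5733 bp at the median, and the shortest was 80 bp. E21 chains were of like size, with a median span of 13977 bp and a median gap of 5811 bp.

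**Figure D1:**
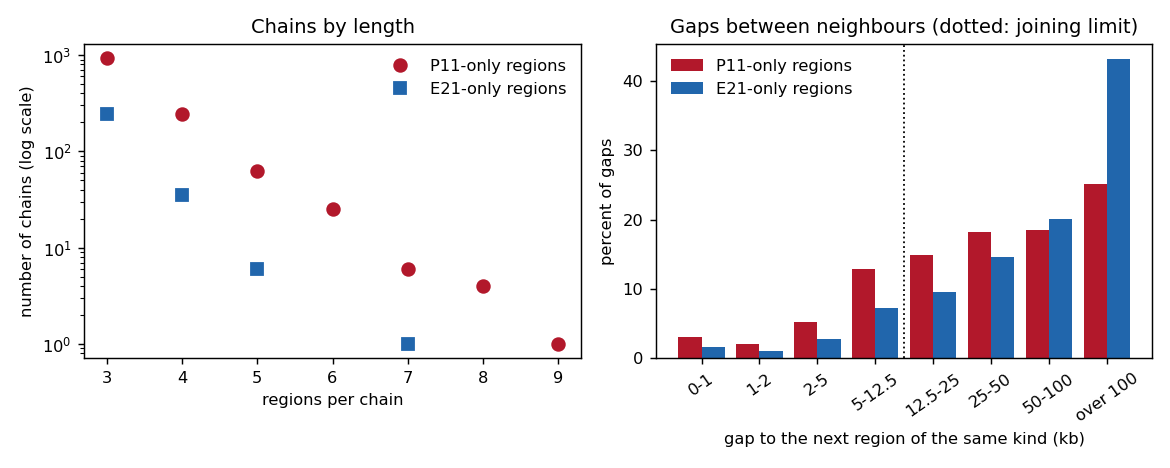
Left, number of chains (log scale) against the number of regions per chain for P11-only (circles) and E21-only (squares) regions. Right, percent of gaps to the next region of the same kind by gap length in kb, with the dotted line at the joining limit. P11 chains reached 9 regions and E21 chains 7, and 43.2% of E21 gaps against 25.2% of P11 gaps were over 100 kb.

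Gaps lay close to the joining limit on either side of it. The number of members depended on this limit, with 1363 at a gap of 6250 bp and 9650 at 25 kb. The 5 longest gaps that still joined regions were 12496 to 12500 bp, and the 5 shortest that did not were 12505 to 12512 bp. Of the former, 1 joined members, the others joining pairs only, and of the latter none lay next to a member. The calls themselves were also close to their limit in places. The lowest −log10 q of a member in the weaker of its P11 libraries was 2.03, and 28.5% of members were under 5 there, beside 28.6% of the other P11-only regions.

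The 10 chains with the most members lay on 10 different chromosomes. The longest was chr15:58853887-58920002, with 9 P11-only regions over 66.1 kb. In P11 replicate 1 the summit pileups of its members ran from 14 to 41 fragments (median 24) and in P11 replicate 2 from 16 to 39 (median 24). It also held 2 regions called in all 4 libraries, here called constant regions. One of these, chr15:58904179-58905042, had 125 and 159 fragments at E21 and 67 and 71 at P11, so the strongest peak of the chain was a shared one with more fragments at E21.

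The chain chr7:23488517-23524416 had the fewest E21 calls of these 10. Its 8 members lay within 35.9 kb, with no constant region between them and 1 other region, which E21 replicate 2 and both P11 libraries had. E21 replicate 1 had no call in the span. Pileups of the members were 19 to 45 fragments in P11 replicate 1 and 18 to 41 in P11 replicate 2, and the highest in both was chr7:23499487-23500036, with 45 and 41.

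The chain chr14:79640944-79683228 held the widest range of pileup among these 10. Its 8 members spanned 42.3 kb and had 29 to 122 fragments in P11 replicate 1 and 21 to 115 in P11 replicate 2. The end member, chr14:79682538-79683228, had 122 and 115 fragments, while the next highest pileup in the chain was 53 in P11 replicate 1 and 55 in P11 replicate 2. Between the members lay 5 constant regions. The median pileup of these was 38 and 68 fragments at E21 and 65 and 69 at P11. Depth differed, with a genome-wide background of 4.80 and 5.03 at E21 against 4.30 and 4.17 at P11. The overlap of E21 replicate 2 with P11 is thus one of raw counts only. Relative to these backgrounds, both P11 medians were above both E21 medians, a difference that was not tested.

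The remaining long chains resembled these. Chains of 8 members were chr4:147766096-147818253 (52.2 kb) and chr10:16845370-16900916 (55.5 kb). Chains of 7 were chr11:68767836-68795404 (27.6 kb), chr17:29179349-29207256 (27.9 kb), chr5:47716342-47745987 (29.6 kb), chr2:234700493-234737449 (37.0 kb) and chr12:10191629-10235317 (43.7 kb). Each of these 7 chains held 1 to 5 constant regions and was called in 2 to 8 places in either E21 library. In 9 of these 10 chains, constant regions thus lay between the P11-only members.

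**Figure D2:**
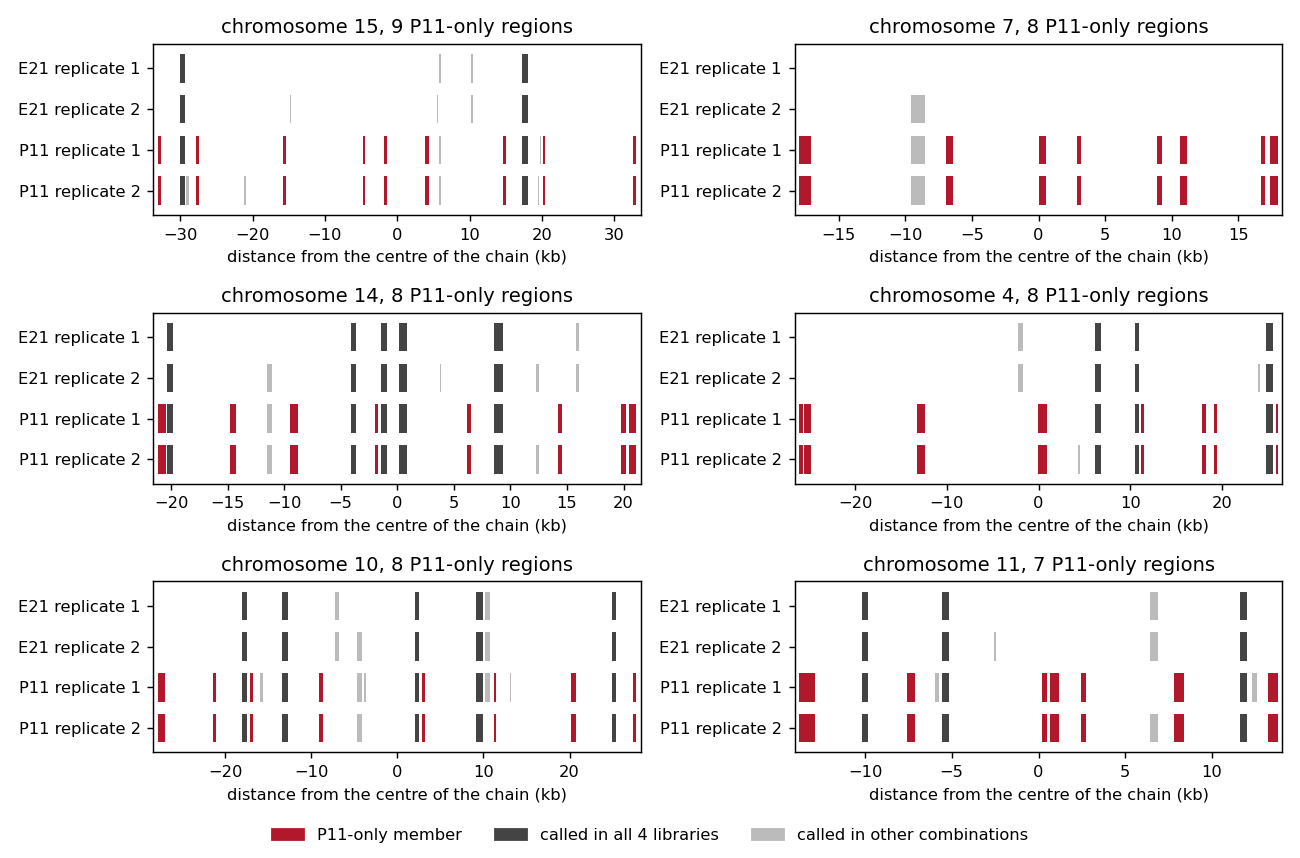
Calls in the 6 chains with the most members, 1 row per library, drawn to scale as distance from the centre of the chain in kb. Red marks P11-only members, dark grey regions called in all 4 libraries, light grey any other combination. The chromosome 7 chain has 8 members and no region shared by all 4 libraries, and the chromosome 14 and chromosome 10 chains have 5 shared regions each.

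Shorter chains more often lay in stretches with no call at E21. Of all 1271 chains, 441 (34.7%) had no OCR of either E21 library within their span, and these chains, silent at E21, held 1397 members. They were 377 of the 927 chains of 3, 54 of the 246 chains of 4, 10 of the 62 chains of 5 and 0 of the 36 longer chains. A longer span has more room for an E21 call, and this decline was not separated from length. For the E21 chains, 116 of 285 (40.7%) had no P11 call. The widest of the 10 silent chains of 5, which were picked out after their values were seen, was chr12:5594717-5620331 at 25.6 kb. Its members had 17, 26, 27, 33 and 23 fragments in P11 replicate 1 and 22, 27, 43, 40 and 23 in P11 replicate 2. The next, chr4:98057183-98080980, had 21, 24, 34, 45 and 25 fragments in P11 replicate 1 and 30, 29, 55, 72 and 30 in P11 replicate 2, and the member with 45 and 72 was the highest in both. In the other chains of this kind the pileups ran from 17 to 74 fragments over both libraries.

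The spans of all chains together covered 19.5 Mb and held 6775 regions, of which 63.6% were members. A constant region lay inside 596 chains (46.9%), and 304 chains (23.9%) held no region but their own members. The other 2467 regions in the spans were 1.25% of all regions that were not P11-only. Per class of region, the share inside the spans was 1.15% of constant regions (932), 1.63% of regions called in 1 P11 library alone (612), 1.39% of those in both P11 and 1 E21 library (213), 1.32% of those in 1 library of each stage (115), 1.22% of those in 1 E21 library alone (293), 1.10% of those in both E21 and 1 P11 library (140) and 0.947% of E21-only regions (162). The 95% Wilson interval was 1.51 to 1.76% for regions of a single P11 library and 0.813 to 1.10% for E21-only regions. The intervals did not overlap, but regions within one span are not independent. The interval for regions in both P11 and 1 E21 library, 1.22 to 1.59%, overlapped that for 1 library of each stage, 1.10 to 1.58%, so these classes were not ordered.

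Clustered regions lay at about the same distance from constant regions as the other 23795 P11-only regions did at short range. The median distance was 6342.5 bp for clustered and 6791 bp for other regions, and 28.2% and 28.0% were within 3 kb. Within 12500 bp the shares were 73.7% (95% Wilson interval 72.3 to 74.9%) and 68.2% (67.6 to 68.8%), and within 50 kb 98.3% and 94.7%. Few clustered regions were therefore far from chromatin that was open at both stages.

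Members were weak OCRs by the standard of their own lists. The rank of an OCR is its percentile by −log10 q within its library. The median rank of the members was 34.5 in P11 replicate 1 and 38.4 in P11 replicate 2, against 70.2 and 72.1 for constant regions. For the other P11-only regions it was 34.5 and 38.9. Constant regions had to be called in all 4 libraries, and P11-only regions had to be missed in both E21 libraries. The contrast with constant regions was therefore partly fixed by the rule. Clustered minus other regions came to −0.21 ± 0.30 percentile points (SD, n = 2), a difference within the spread between the P11 libraries. Median widths were 326 and 340 bp for members and 324 and 344 bp for other P11-only regions, again within that spread (−1.0 ± 4.2 bp). With the main rule, being in a chain thus went with neither a higher rank nor a broader peak. The rank is not free of the rule, because −log10 q is computed against the local background, described below. Neighbouring members add fragments to that background. The rank difference was −2.54 with a joining gap of 6250 bp and 1.03 without P11 replicate 2.

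Pileup and fold moved in opposite directions. The median summit pileup of the members was 27 fragments in P11 replicate 1 and 28 in P11 replicate 2, and that of other P11-only regions was 24 and 26. The difference was 2.5 ± 0.71 fragments (SD, n = 2). Over all members the pileup ran from 13 to 129 fragments in replicate 1 and from 13 to 137 in replicate 2. The fold is the authors' ratio of the pileup to the local background of the same stretch. Its median was 3.94 and 4.13 for members and 4.12 and 4.40 for other P11-only regions, a difference of −0.23 ± 0.059. Both libraries showed both directions. With 2 libraries an exact sign-flip test cannot give a two-sided p under 0.5, and 0.5 was the p for each measure. Both directions were also partly fixed by the rule. Neighbouring members add fragments to the local background, which lowers the fold, and a call there then needs a higher pileup. No conclusion is drawn from the sign-flip test. The fold difference came to 0 among OCRs with a fold of at least 4, to −0.15 without P11 replicate 1 and to −0.067 without P11 replicate 2.

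The local background, the denominator of the fold, was higher at the members. It is the level to which the caller compared a summit, and it never falls under the genome-wide background. At the members its median was 1.26 and 1.29 times the genome-wide background, and at other P11-only regions 1.0 and 1.0 times. It stood at the genome-wide level for 28.2% and 27.1% of members and for 51.9% and 49.8% of other P11-only regions. The difference in medians was 0.27 ± 0.015 (SD, n = 2). Members have other P11 peaks near them by the rule, and fragments of those peaks enter the local background, so this is a description and was not tested. Members inside a chain were 0.097 ± 0.0016 above those at its ends, and members of chains of at least 6 were 0.39 ± 0.016 above those of chains of 3.

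**Figure D3:**
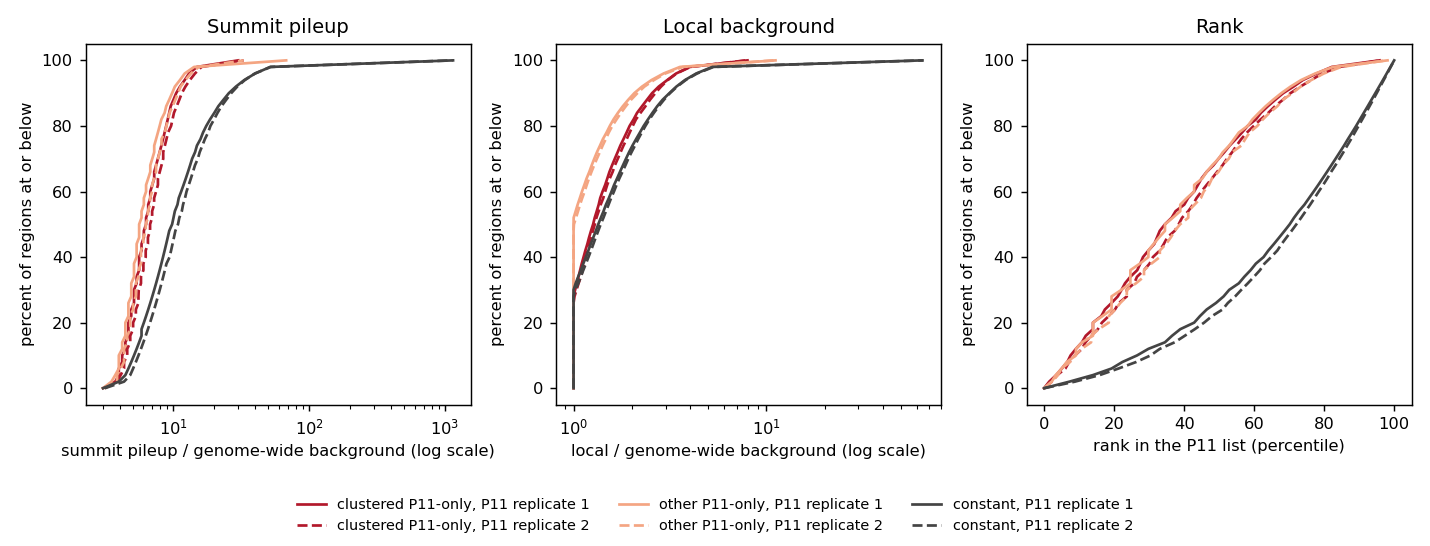
Percent of regions at or below each value in P11 replicate 1 (solid) and P11 replicate 2 (dashed), for clustered P11-only, other P11-only and constant regions. The axes are summit pileup and local background, each over the genome-wide background on a log scale, and rank in percentile. Clustered and other P11-only regions run together in rank, while clustered regions lie to the right in local background (medians 1.26 and 1.29 against 1.0 and 1.0).

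Members of chains with no E21 call in the span differed from those of the other chains in the opposite sense. Their pileup was lower by 2.5 ± 0.71 fragments, their fold higher by 0.36 ± 0.096, and their local background lower by 0.28 ± 0.019 times the genome-wide level (SD, n = 2). Chains with no E21 call hold no constant region by that choice, and 377 of the 441 were chains of 3, whose local background was lower than that of long chains. The direction was therefore partly fixed by the choice, and these values were not tested.

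The E21 libraries began to call at up to 2.91 times their genome-wide background, and every OCR of the P11 lists lies above that level by the P11 limits alone. In 2056 members (47.7%) the pileup over background was more than 2 times that level in both P11 libraries, beside 37.4% of other P11-only regions. The rest were within 2 times of it in at least 1 P11 library. A summit is called against its local background, which was higher at members partly by the rule. The higher share among members was thus partly fixed by the rule and was not tested. The level of 2.91 belongs to the lowest called summits and is not the E21 limit at each of these places.

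Strength was mixed within chains. The SD of the members' mean rank over both P11 libraries was 19.9 percentile points over all members and 19.6 within chains, so ranks varied about as much within a chain as among all members. The weakest and strongest member of a chain lay 34.5 points apart at the median. In 23 chains every member had a mean rank of at least 50, in 442 none did, and in 806 some did. A mean rank of at least 50 was found in 27.4% of members and 27.1% of other P11-only regions. The Spearman correlation between the ranks of both P11 libraries was 0.545 over the members, 0.508 over other P11-only regions and 0.858 over constant regions. These are descriptions across regions of the same libraries.

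The 5 members with the highest mean rank had 88 to 137 fragments at their summits. The first, chr1:228738802-228739364, had 107 and 99 fragments and a fold of 12.8 and 11.2 in the P11 libraries. It was the middle of a chain of 3 over 17.3 kb with no E21 call, and its neighbours were uneven: chr1:228730451-228730876 had 17 and 28 fragments and chr1:228747293-228747784 had 82 and 78. The second, chr8:61370367-61371164, had 115 and 137 fragments, the most of any member in replicate 2, between neighbours with 46 and 35 and with 21 and 27. The third was the end of the 8-member chain on chromosome 14 described above. The other two were also on chromosome 14. The region chr14:2175119-2176720 had 88 and 111 fragments, at 1602 bp was the widest member in replicate 1, and headed a chain of 3 over 14.6 kb whose other members had 56 and 64 and then 58 and 75 fragments. The region chr14:77017666-77018833 had 88 and 105 fragments and lay in a chain of 3 over 17.5 kb beside members with 19 and 18 and with 16 and 26. Neither of the last 2 chains had a call at E21. A strong member was thus found both among strong and among weak neighbours.

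Constant regions inside the chains were called at both stages and can be compared between them. Their rank is not free of the rule, because −log10 q is computed against the local background, to which the members add fragments at P11. Their median rank in the E21 libraries was 59.6 and 68.8, and in the P11 libraries 65.5 and 67.3. The P11 values lay between the E21 values. The stage difference was 2.25 percentile points (exact permutation test over the 4 libraries, two-sided, p = 1, with a smallest possible p of 0.33). The value turned to −3.27 with a joining gap of 6250 bp and to −0.89 when ranked among constant regions only, so no direction is given. It was 8.48 without E21 replicate 2, and leaving out P11 replicate 1 or 2 gave 4.21 or 1.32. At the 80165 constant regions elsewhere the E21 medians were 64.9 and 72.0 and the P11 medians 70.2 and 72.1, a difference of 2.72 points (exact permutation p = 0.667), which turned to −0.89 with equal list lengths and was 6.57 without E21 replicate 2 and 1.13 without E21 replicate 1. Constant regions inside chains were therefore lower in rank than those elsewhere in each of the 4 libraries. Region by region, both P11 libraries ranked above both E21 libraries in 30.4% of the regions inside chains and below in 30.9%, beside 33% and 26.9% of all 81097 constant regions. These shares were near the background.

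On the pileup scale the constant regions inside chains were nearer to level between the stages than those elsewhere. The summit pileup over genome-wide background had medians of 9.99 and 12.7 at E21 and 10.5 and 11.5 at P11, against 11.03, 13.3, 9.53 and 10.8 elsewhere. The median log2 ratio of P11 to E21 was −0.12 inside chains and −0.30 elsewhere. Both P11 libraries were above both E21 libraries in 26.8% and below in 38.7% of the regions inside chains, while the shares over all constant regions were 18% and 49.4%. On this scale the constant regions as a set shifted toward E21 at the median, so the values are read against that shift. The difference between inside and elsewhere was not tested.

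The local background of these constant regions was higher at P11. Inside chains its median was 1.34 and 1.60 times the genome-wide background at E21 and 1.96 and 2.01 times at P11 and elsewhere 1.23, 1.40, 1.34 and 1.37 times. The P11 and E21 values did not overlap in 636 of the 932 regions with P11 higher (68.2%) and in 78 with P11 lower (8.37%), beside 27% and 35.8% of all constant regions. The 162 constant regions inside E21 chains had medians of 1.77 and 2.04 times at E21 and 1.57 and 1.59 times at P11. As the members themselves supply fragments to this background, the direction was partly fixed by the rule in both cases, and these values were not tested.

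This rise was local. Constant regions within 1 kb of a member had a median log2 ratio of local background, P11 over E21, of 0.36 (493 regions), and those 1 to 2.5 kb and 2.5 to 5 kb away had 0.35 and 0.27. From 5 to 10 kb the ratio was 0.07, and from 50 to 100 kb 0.00. Around other P11-only regions, at constant regions more than 100 kb from any member, the ratio was 0.11 within 1 kb, 0.15 from 1 to 2.5 kb, 0.11 from 2.5 to 5 kb and 0.00 from 5 to 10 kb. Around E21-only regions the ratio had the opposite sign, at constant regions over 12500 bp from any P11-only region. It was −0.098 within 1 kb, −0.083 from 1 to 2.5 kb and −0.073 from 2.5 to 5 kb. From 5 to 10 kb it was −6.61e-06. The step near 5 kb was thus common to all of these kinds. The width of the window in which the caller averaged the background is not given in the sources used here. Its part in the step was not tested. The pileup of the constant regions themselves changed more gently, from −0.05 within 1 kb of a member to −0.17 at 2.5 to 5 kb and −0.24 at 50 to 100 kb.

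**Figure D4:**
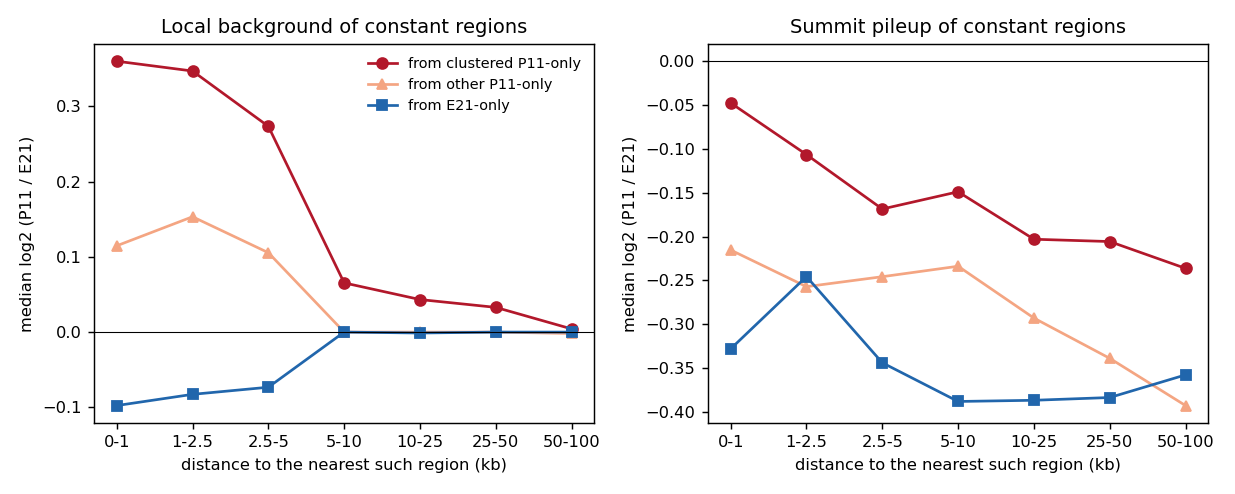
Median log2 ratio of P11 to E21 at constant regions, for local background (left) and summit pileup (right), each over the genome-wide background, against distance in kb to the nearest clustered P11-only, other P11-only (constant regions over 100 kb from a member) or E21-only region (constant regions also over 12500 bp from any P11-only region). Near clustered regions the local background ratio is 0.36, and it falls to 0.07 at 5 to 10 kb.

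Clustering was seen on every numbered chromosome. The clustered share of P11-only regions was between 12.1% on chromosome 5 (215 of 1779) and 20.03% on chromosome 12 (127 of 634, 95% Wilson interval 17.1 to 23.3%). Chromosome 14 followed with 19.6% (266 of 1357, 17.6 to 21.8%). The share was higher than that of E21-only regions on 20 of 20 chromosomes, although the closest, chromosome 20, had 12.7% against 8.52%. This count rests on the full lists of unequal length and was not repeated by chromosome with equal lists or without E21 replicate 1, where the shares over all chromosomes were closer or level. P11-only regions made up the largest part of all regions on chromosome 17 (15.6%), where 15.6% of them were clustered. They made up the smallest part on chromosome 10 (10.2%), where 17.9% were clustered. The clustered share was not set against the density of P11-only regions along each chromosome. The Wilson intervals cover counting error only and treat regions as independent, which neighbours in a chain are not.

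**Figure D5:**
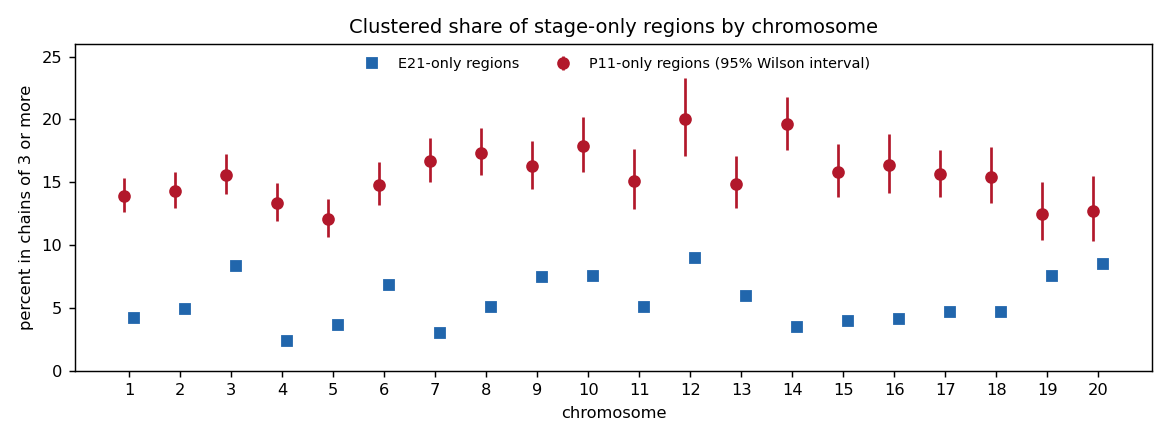
Percent of P11-only regions (circles, bars are 95% Wilson intervals) and E21-only regions (squares) that lie in chains of at least 3, by chromosome. In the full lists P11 values run from 12.1% on chromosome 5 to 20.03% on chromosome 12 and are above the E21 value on each of the 20 chromosomes.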

How the data were processed

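Immunopanned RGCs of Sprague Dawley rats were profiled by ATAC-seq at E21 and P11. Mapping and OCR calling were done by the authors in each library separately (ATAC-seq Integrative Analysis Package). The submitters' processing notes name MACS2 and Rnor_6.0 (rn6). Versions and settings are not given in the sources used here. The deposited lists give a score, a fold at the summit (a ratio to local background), and the −log10 p and −log10 q value of each OCR. Authors' values were compared only within a list or as ranks.

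Duplicate lines were dropped and only numbered chromosomes were used. The members and lists were chosen with earlier results of these data known. Fold and −log10 p were solved together for the summit pileup and local background, on the layout in which fold is pileup plus 1 over background plus 1 and p is a Poisson tail. The pileup was whole within 0.02 in 100% of OCRs. The lowest local background of a library was taken as its genome-wide background. A region took the value of its OCR with the highest −log10 q. The measures of local background and the distance profile were chosen after seeing the data. Scripts were tested on simulated data.

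Stage and replicate came from the labels. Stage medians were compared with the exact permutation test over 3 splits, and differences within the P11 lists are means ± SD over 2 libraries with an exact sign-flip test. The rule for named regions was the 10 chains with the most members (ties, shorter span first), the 5 members with the highest mean rank over both P11 libraries, and the 5 gaps on either side of the limit. Wilson intervals (95%) and pileups cover counting error only. Reads per region were not used here. Gene annotation, gene lists, motifs and sequences had been planned but need a genome of the same build, and were not used here. Alternatives were OCR limits, equal list lengths, other gaps and chain lengths, reciprocal overlap, each library left out, a replicate block and other rank scales. Python 3.11.15, numpy 2.4.6, pandas 2.3.3, scipy 1.17.1 and matplotlib 3.10.9 were used.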

Additional observations from a re-analysis of the deposited data

Results flagged for a closer look

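Chromosome X was outside the comparisons above. It held 4000 regions, of which 482 were P11-only and 310 E21-only. By the same rule 27 P11-only regions in 9 chains were clustered, or 5.60% of P11-only regions (95% Wilson interval 3.88 to 8.03%), and 9 E21-only regions in 3 chains, or 2.90% (1.53 to 5.42%). The count was singled out because it came from data not used elsewhere and lay above that of the E21 rule. The P11 share was below that of each numbered chromosome, where the lowest was 12.1%. Here too the share was not set against the density of P11-only regions along the chromosome, so this comparison is a description.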

How the results depend on the processing

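The number of members moved with each limit but the overlap. With a reciprocal overlap of 50% it was 5888 in 1676 chains (18.1% of P11-only regions), and 65.0% of reported members were found again. It was 2535 in 761 chains when a −log10 q of 5 was required, 1836 in 559 with equal list lengths, 953 in 298 with a fold of at least 4, 1527 in 344 for chains of at least 4, 1363 in 434 with a gap of 6250 bp and 9650 in 2488 with a gap of 25 kb. The clustered share of P11-only regions was 9.16% with equal list lengths, 5.50% with a fold of at least 4, 5.43% for chains of at least 4, 4.85% at 6250 bp and 34.3% at 25 kb, where that of E21-only regions was 13.6%. Reported members found again were 1160 with equal list lengths (26.9%), 1933 at the higher q limit (44.9%) and 444 at the fold limit (10.3%). Leaving out a library gave 5047 to 15423 members, 1464 to 4103 chains, 16.7% to 30.2% of P11-only and 7.55% to 16.3% of E21-only regions. There were 10596 members without E21 replicate 2 and 12174 without P11 replicate 2. The highest count came without P11 replicate 1, and the highest E21 share without E21 replicate 1.

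Clustered minus other regions differed in fold by 0 with a fold of at least 4, −0.33 for chains of at least 4, −0.30 at 6250 bp, −0.33 with reciprocal overlap, and −0.26 to −0.067 with a library left out. Widths differed by 11.5 bp with a fold of at least 4, −10.5 bp at 6250 bp, and −1.5 to 7.0 bp with a library left out. Ranks differed by 0.093 at the higher q limit, 0.99 with a fold of at least 4, −1.45 for chains of at least 4, 0.80 with equal list lengths, 0.97 at 25 kb, −2.54 at 6250 bp, and −0.19 to 1.031 with a library left out. The stage difference in rank at constant regions inside chains turned to −3.27 at 6250 bp (exact permutation p = 1) and −0.89 when ranked among constant regions only (p = 0.667), and that elsewhere to −0.89 with equal list lengths (p = 0.33). With a library left out they were 1.32 to 8.48 and 1.13 to 6.57. The causes were not tested.

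Replicate numbers name litters of different ages and do not pair them, and same-numbered libraries did not deviate together (correlation 0.027). With a replicate block, 20711 regions in 5282.5 chains were clustered as a mean of both numbers, 35.5% of P11-only and 17.8% of E21-only regions. A block compares 1 library per stage, so more regions pass. The blocked stage difference was 2.25 inside chains and 2.72 elsewhere (exact sign-flip p = 1 and 0.5). Of 112 alternative values 61 were labelled the same, 48 moved and 3 reversed. The margin was a factor of 1.5 for counts and the SD for shares, ranks, widths and folds. That SD was over the 4 single-library pairs for shares and over the 2 P11 libraries for the others. Stage differences had no margin of size and needed only to keep their sign. The value of 8.48 without E21 replicate 2 was thus labelled the same as 2.25. For the clustered share of E21-only regions the SD, 5.53, was larger than the main value of 5.30%. Shares of 1.03% for chains of at least 4 and 1.64% at 6250 bp were therefore also labelled the same. Annotation and motif alternatives were not run. Depth limits the calls, since absence at E21 means fewer than 14 fragments or too few above the local background.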

Other observations

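Regions called in both P11 libraries and 1 E21 library divided unevenly between the E21 libraries. Inside chains 172 of these had the call in E21 replicate 2 and 41 in E21 replicate 1, and over all numbered chromosomes the numbers were 13141 and 2160. E21 replicate 2 has the longer list. A further 46 P11-only regions lay inside the spans of E21 chains, which is 0.164% of P11-only regions, and 162 E21-only regions lay inside those of P11 chains, which is 0.947% of E21-only regions. The P11 chains are the more numerous and cover more of the genome, so the shares are not comparable between the stages.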
